A study of Rattus norvegicus with 47 samples.

Results

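The p21 and p53-linked growth arrest genes described here are the cyclin-dependent kinase inhibitors *Cdkn1a* (p21) and *Cdkn2b* (p15), the secreted factor *Gdf15*, the antiproliferative gene *Btg2*, the p53 inhibitors *Mdm2* and *Mdm4*, and the p53 targets *Sesn1* and *Bax*. They are 8 of the 32545 genes counted in kidney cortex of male Wistar rats, and they were selected on measured values of these same libraries, chiefly their changes under lithium. A gene could be selected by name only if it was 1 of the 9237 genes with a symbol, which are those listed as changed in at least 1 of the 9 deposited comparison tables. Their changes of lithium against control are therefore given as a description, without a p-value. The p-values of the other comparisons are not independent of the selection either, because they share libraries with lithium against control. All 8 genes matched 1 Ensembl gene each and passed the filter on low counts at every time.

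Messenger RNA was sequenced in 3 studies, which ended at day 14, at day 28 and at 6 months. In each study 1 group had lithium with amiloride (lithium-amiloride), 1 had lithium alone and 1 was a control group on plain chow. The paper describes a salt block for the rats given lithium and mentions none for controls. Lithium and the salt block therefore cannot be told apart in the comparisons with control. Lithium carbonate was given in the chow and is listed with the samples as 60 mM. For the 14-day and 28-day studies the paper describes a lower dose in the first week. After that week it gives 60 mmol lithium per kg of dry food. Amiloride, which blocks epithelial sodium channels, was given at 0.2 mM in the drinking water. Amiloride was started together with lithium in the 14-day and 28-day studies and given for the last 5 months of the 6-month study. The comparisons used 44 of the 47 deposited libraries, 5 lithium-amiloride, 6 lithium and 6 control at each of 14 and 28 days, and 10 at 6 months, with 10399818 to 25415685 counted reads each. The 3 libraries left out are those missing from the deposited comparison tables. Each library stands for 1 rat as far as the study describes it, so the error given rests on the spread between libraries.

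The group names of the 6-month study are in doubt. The deposited 6-month tables of fold changes could be rebuilt from the counts only with the libraries labelled lithium-amiloride taken as control, those labelled control taken as lithium, and those labelled lithium taken as lithium-amiloride. *Aqp2*, the water channel of the collecting duct whose loss marks lithium-treated kidneys, averaged 95.1 CPM (read counts scaled to the same library size) in lithium-amiloride, 17.7 in lithium and 173 in control cortex at 14 days. At 6 months it averaged 85.6 CPM in the 3 libraries labelled lithium, 30.1 CPM in the 4 labelled control and 199 CPM in the 3 labelled lithium-amiloride. *Aqp2* was thus lowest in the libraries labelled control. The 6-month groups are called by their labels throughout, with the naming of the tables beside them where a direction is drawn.

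The tumour suppressor p53 is a transcription factor that is stabilised by DNA damage and other stress, and it arrests the cell cycle or starts cell death through its target genes. The protein made from *Cdkn1a* binds cyclin-dependent kinases and stops cells before DNA replication, while that of *Cdkn2b* blocks the kinases that act with cyclin D and is best known as a target of TGF-beta. In the injured kidney, tubule cells that stay arrested are known to release inflammatory and profibrotic factors, and *Cdkn1a* is a widely used marker of that state.

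The RefSeq promoter table of the rat assembly GRCr8 held windows of 250 bases before to 50 bases after the transcription start for 7 of the 8 genes, and 2 windows for *Gdf15*. The 5 windows below are shown because they belong to the genes with the largest changes and, for *Sesn1*, to the gene that changed in the opposite direction. Capitals mark matches to 3 patterns, the p53 decamer (the 10-base p53 motif, which reads the same on both strands), the ATF/CREB motif TGACGTCA and the TATA motif TATAAA, the last searched on both strands, and no 2 of the marked patterns overlapped. The files used another assembly, Rnor_6.0, for counting, so these positions apply to GRCr8 only.
Cdkn1a, chr20:7150682-7150981, plus strand: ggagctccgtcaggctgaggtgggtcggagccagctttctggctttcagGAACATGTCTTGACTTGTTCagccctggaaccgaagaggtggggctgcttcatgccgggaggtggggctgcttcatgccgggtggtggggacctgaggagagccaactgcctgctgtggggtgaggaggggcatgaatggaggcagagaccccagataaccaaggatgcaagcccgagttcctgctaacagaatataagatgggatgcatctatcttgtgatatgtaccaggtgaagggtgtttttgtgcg
Cdkn2b, chr5:109134806-109135105, minus strand: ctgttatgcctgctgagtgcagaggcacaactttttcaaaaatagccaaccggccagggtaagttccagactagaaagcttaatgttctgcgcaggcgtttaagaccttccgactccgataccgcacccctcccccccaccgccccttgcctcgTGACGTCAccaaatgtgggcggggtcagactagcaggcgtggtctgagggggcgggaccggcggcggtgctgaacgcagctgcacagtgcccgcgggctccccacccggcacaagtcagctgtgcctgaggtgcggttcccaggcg
Gdf15, chr16:18839015-18839314, plus strand: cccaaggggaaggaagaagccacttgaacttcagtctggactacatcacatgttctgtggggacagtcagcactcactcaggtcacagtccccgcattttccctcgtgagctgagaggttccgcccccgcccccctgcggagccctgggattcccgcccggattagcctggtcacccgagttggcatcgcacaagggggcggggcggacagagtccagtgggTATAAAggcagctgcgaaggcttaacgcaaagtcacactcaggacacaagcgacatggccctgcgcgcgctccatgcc
Btg2, chr13:48087641-48087940, minus strand: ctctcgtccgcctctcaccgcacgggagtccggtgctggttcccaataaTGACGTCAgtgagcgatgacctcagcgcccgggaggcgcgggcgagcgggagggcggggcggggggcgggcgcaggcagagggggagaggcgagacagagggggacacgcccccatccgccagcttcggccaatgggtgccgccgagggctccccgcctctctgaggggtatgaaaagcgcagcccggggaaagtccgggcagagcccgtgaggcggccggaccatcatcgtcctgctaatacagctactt
Sesn1, chr20:46948469-46948768, plus strand: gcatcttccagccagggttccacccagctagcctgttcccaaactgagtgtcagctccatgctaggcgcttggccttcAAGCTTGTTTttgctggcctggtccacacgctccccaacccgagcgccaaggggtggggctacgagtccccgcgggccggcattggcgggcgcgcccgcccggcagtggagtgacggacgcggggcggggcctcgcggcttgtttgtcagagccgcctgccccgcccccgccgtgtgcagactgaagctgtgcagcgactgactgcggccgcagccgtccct

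The *Cdkn1a* window held 2 adjoining p53 decamers with at most 1 mismatch, at positions -201 to -182 from the start. Such a pair with at most 1 mismatch occurred in 17 of 33469 windows of this length (0.0508%). A single exact p53 decamer occurred in 7.98% of windows and in 2 of the 8 windows of these genes, that of *Cdkn1a* and that of *Sesn1*. The motif TGACGTCA occurred in 1.83% of windows and in those of *Cdkn2b* and *Btg2*, and TATAAA occurred in 14.2% of windows and, among the genes described here, in the second *Gdf15* window, at positions -28 to -23 from the start. The windows of *Mdm2* and *Mdm4* held none of these 3 patterns, which says nothing of sites elsewhere in the genes. A match is a description of the sequence, and binding of p53 or of any other factor was not measured.

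Of the kinase inhibitors, *Cdkn1a* (ENSRNOG00000000521) was far higher under lithium than in controls at 14 and 28 days. No decrease with amiloride passed the test at these times. At 14 days it had 86.6, 90.5, 87.8, 99.1 and 108 CPM in the 5 lithium-amiloride libraries. In the 6 lithium libraries it ranged between 83.5 and 108 CPM with a median of 95.2 CPM, and in the 6 controls between 4.58 and 6.84 CPM with a median of 4.74 CPM. Every library with lithium, with or without amiloride, thus lay far above every control, while the lithium-amiloride and lithium libraries overlapped. The log2 fold change was 4.15 ± 0.11 (± standard error here and below) in lithium against control, a 17.8-fold difference, and 4.13 ± 0.12 in lithium-amiloride against control (edgeR adjusted p = 3.57e-14). Between lithium-amiloride and lithium it was -0.02 ± 0.10, with a 95% interval of the ratio of 0.863 to 1.12 (edgeR adjusted p = 0.933).

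At 28 days *Cdkn1a* had 60.6, 96.9, 99.2, 94.7 and 90.4 CPM in the lithium-amiloride libraries. The 6 lithium libraries ranged between 45.9 and 86.5 CPM with a median of 60.7 CPM, and the 6 controls between 5.12 and 9.73 CPM with a median of 6.46 CPM. Of the lithium-amiloride libraries 4 stood above every lithium library and replicate 1 stood among them, so the groups overlapped. *Cdkn1a* differed by 3.20 ± 0.18 on the log2 scale in lithium against control and by 3.69 ± 0.18 in lithium-amiloride against control (edgeR adjusted p = 4.91e-10). The difference of 0.49 ± 0.16 in lithium-amiloride against lithium did not pass the test (ratio 1.40, 95% interval 1.13 to 1.74, edgeR adjusted p = 0.262).

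At 6 months *Cdkn1a* had 78.2, 112 and 76.0 CPM in the libraries labelled lithium. It had 42.8, 52.3, 50.6 and 39.2 CPM in those labelled control, and 12.4, 24.2 and 20.6 CPM in those labelled lithium-amiloride. The 3 groups did not overlap. In the labelled lithium against the labelled lithium-amiloride libraries (lithium-amiloride against control in the naming of the tables) the log2 fold change was 2.21 ± 0.23 (edgeR adjusted p = 0.000145). In the labelled lithium against the labelled control libraries (lithium-amiloride against lithium in that naming) it was 0.94 ± 0.20, and in the labelled control against the labelled lithium-amiloride libraries 1.27 ± 0.22. Taken by label, *Cdkn1a* was thus lower in lithium-amiloride than in lithium at 6 months, and in the naming of the tables it was higher. The labelled lithium against labelled control values are given without a p-value for every one of the 8 genes, because by label they are lithium against control. Under either naming the group given lithium alone was not the one with the lowest *Cdkn1a*.

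The order of mean *Cdkn1a* levels over all 9 groups was 95.6 ± 10.7 CPM (SD here and below) in 14-day lithium, 94.4 ± 9.04 in 14-day lithium-amiloride, 88.8 ± 20.3 in 6-month labelled lithium and 88.4 ± 15.9 in 28-day lithium-amiloride cortex. These 4 means lay within 1 SD of each other. Below them came 62.8 ± 13.5 CPM in 28-day lithium, 46.3 ± 6.24 in 6-month labelled control and 19.1 ± 6.03 in 6-month labelled lithium-amiloride cortex. The 28-day and 14-day controls had 6.80 ± 1.75 and 5.38 ± 1.10 CPM, which also overlap within their SD. The times are separate studies, so a difference in level between times and one between studies cannot be told apart.

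**Figure D1:**
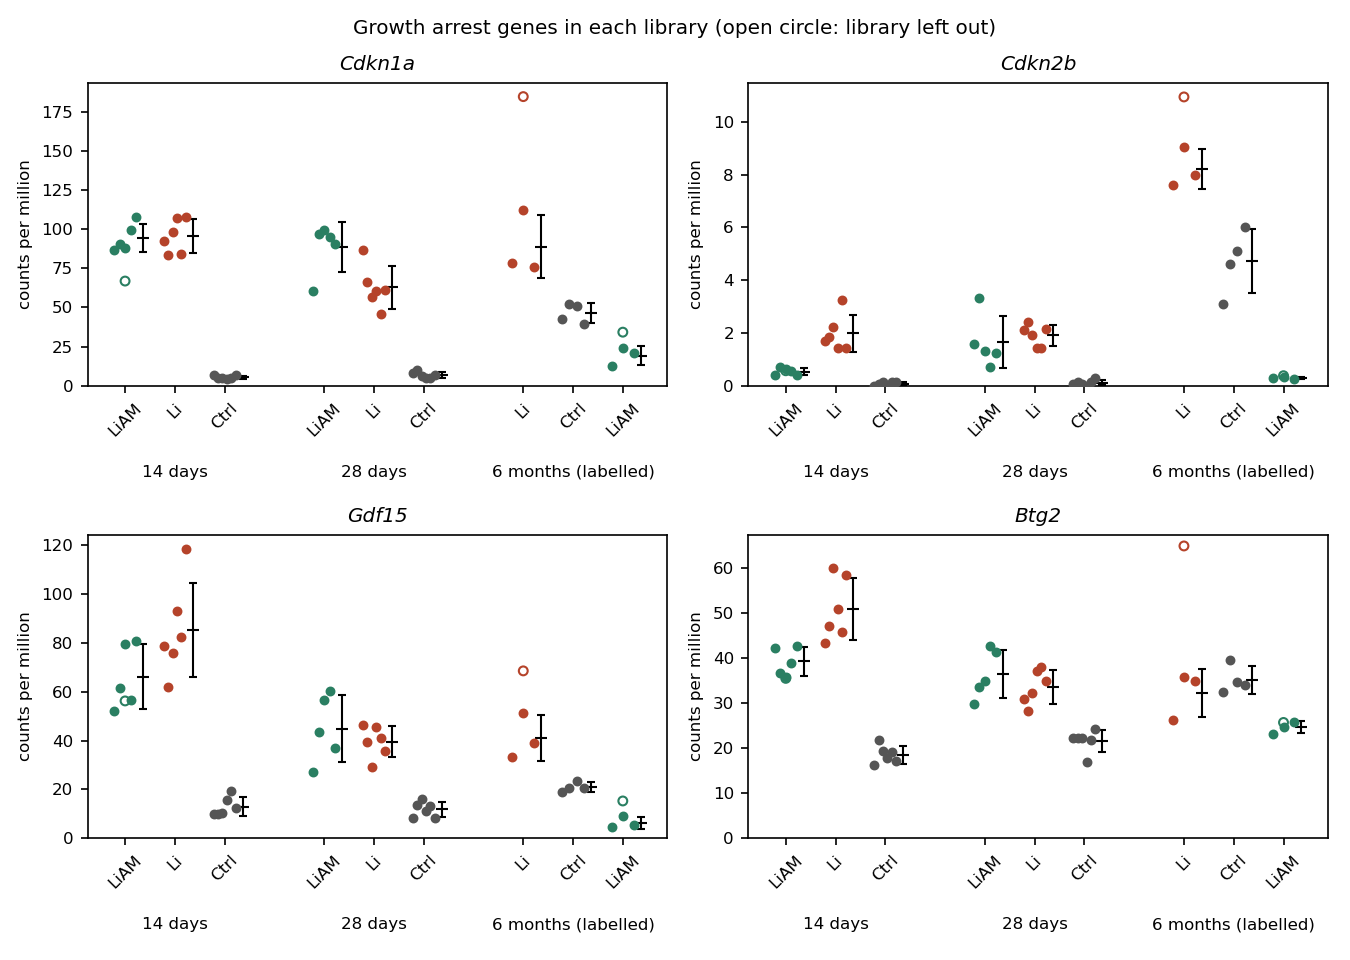
CPM of *Cdkn1a*, *Cdkn2b*, *Gdf15* and *Btg2* in each library, with 1 point per library, group means ± SD beside the points, and lithium-amiloride (LiAM), lithium (Li) and control (Ctrl) shown at each time under the labels of the libraries; open circles are the 3 libraries left out of the comparisons. *Cdkn1a* lay between 83.5 and 108 CPM in the lithium-amiloride and lithium libraries used at 14 days and between 4.58 and 6.84 CPM in controls, and at 6 months all 4 genes were lowest in the libraries labelled lithium-amiloride.

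*Cdkn2b* (ENSRNOG00000006735), the other kinase inhibitor, was the 1 gene of the 8 called lower in lithium-amiloride than in lithium cortex at 14 days. A call required an adjusted p below 0.05 and a change of at least 0.5 on the log2 scale. It was a low-abundance transcript. At 14 days it had 6, 12, 10, 9 and 7 reads in the 5 lithium-amiloride libraries (0.391 to 0.707 CPM), 22 to 52 reads in the 6 lithium libraries (1.42 to 3.25 CPM, median 1.77) and 0 to 2 reads in the 6 controls (0 to 0.143 CPM, median 0.108). The 3 groups did not overlap, with the lithium-amiloride libraries between the lithium and the control libraries. The log2 fold change was 4.39 ± 0.39 in lithium against control, -1.87 ± 0.29 in lithium-amiloride against lithium (edgeR adjusted p = 0.00114) and 2.51 ± 0.48 in lithium-amiloride against control (edgeR adjusted p = 0.00123). The 6 controls held 7 *Cdkn2b* reads in all and 2 of them held none, so the size of the fold against control is loosely fixed.

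At 28 days *Cdkn2b* had 1.58, 3.31, 1.33, 0.722 and 1.25 CPM in the lithium-amiloride libraries (13 to 54 reads), 1.43 to 2.42 CPM in the lithium libraries (20 to 40 reads) and 0 to 0.275 CPM in the controls (0 to 4 reads). Lithium-amiloride and lithium overlapped at this time, and both lay above every control. Its log2 fold change was 3.91 ± 0.46 in lithium against control and 3.68 ± 0.47 in lithium-amiloride against control (edgeR adjusted p = 3.39e-05). It was -0.23 ± 0.32 in lithium-amiloride against lithium, a ratio with a 95% interval of 0.552 to 1.31 (edgeR adjusted p = 0.786). The change in this comparison between the times, 1.63 ± 0.42 at 28 days minus 14 days, did not pass the test of the difference (edgeR adjusted p = 0.179), so the 14-day decrease is not shown to be particular to that time.

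At 6 months *Cdkn2b* had 7.62, 9.05 and 7.97 CPM in the libraries labelled lithium, 3.11, 4.62, 5.11 and 6.03 CPM in those labelled control, and 0.303, 0.332 and 0.248 CPM in those labelled lithium-amiloride. The 3 groups did not overlap, in the same order as for *Cdkn1a*. The labelled lithium against the labelled lithium-amiloride libraries gave a log2 fold change of 4.77 ± 0.29, a 27.3-fold difference (edgeR adjusted p = 6.67e-06). The labelled lithium against the labelled control libraries gave 0.80 ± 0.19, and the labelled control against the labelled lithium-amiloride libraries 3.97 ± 0.28.

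*Gdf15* (ENSRNOG00000019661), a stress-induced cytokine of the TGF-beta superfamily that acts through a receptor in the brain stem, rose under lithium with and without amiloride. At 14 days it had 52.0, 61.7, 79.7, 56.5 and 80.6 CPM in the lithium-amiloride libraries, 61.8 to 119 CPM in the lithium libraries (median 80.7) and 9.78 to 19.4 CPM in the controls (median 11.4). At 28 days it had 27.3, 43.5, 56.6, 60.4 and 36.9 CPM in the lithium-amiloride, 29.2 to 46.3 CPM in the lithium (median 40.4) and 8.24 to 16 CPM in the control libraries (median 12.2). At both times the libraries with lithium lay above every control and overlapped each other. In log2 terms lithium-amiloride stood above control by 2.36 ± 0.19 at 14 days (edgeR adjusted p = 9.33e-08) and by 1.93 ± 0.21 at 28 days (edgeR adjusted p = 4.68e-06), beside 2.73 ± 0.19 and 1.75 ± 0.20 in lithium against control. Against lithium, lithium-amiloride gave -0.37 ± 0.17 at 14 days (edgeR adjusted p = 0.275) and 0.18 ± 0.19 at 28 days (edgeR adjusted p = 0.726), neither past the test, with 95% intervals of the ratio of 0.610 to 0.981 and 0.871 to 1.47.

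At 6 months *Gdf15* had 33.1, 51.4 and 38.8 CPM in the libraries labelled lithium, 19.0, 20.7, 23.6 and 20.7 CPM in those labelled control and 4.40, 9.09 and 5.61 CPM in those labelled lithium-amiloride. The 3 groups again did not overlap and had the order of the kinase inhibitors. The log2 fold change was 2.68 ± 0.24 in the labelled lithium against the labelled lithium-amiloride libraries (edgeR adjusted p = 5.31e-05) and 0.97 ± 0.20 in the labelled lithium against the labelled control libraries. In the labelled control against the labelled lithium-amiloride libraries it was 1.71 ± 0.23.

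*Btg2* (ENSRNOG00000003300), which slows proliferation and speeds the removal of poly(A) tails from messenger RNA, rose less. At 14 days it had 42.2, 36.7, 35.8, 38.9 and 42.8 CPM in the lithium-amiloride libraries, 43.4 to 60.1 CPM in the lithium libraries (median 49.0) and 16.2 to 21.9 CPM in the controls (median 18.5). The 3 groups did not overlap. The log2 fold change was 1.46 ± 0.09 in lithium against control and 1.08 ± 0.09 in lithium-amiloride against control (edgeR adjusted p = 2.26e-07). Against lithium, lithium-amiloride gave -0.38 ± 0.09 (edgeR adjusted p = 0.0251), below the fold of 0.5 on the log2 scale that a call required.

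At 28 days *Btg2* had 29.8, 33.6, 34.8, 42.7 and 41.3 CPM in the lithium-amiloride libraries, 28.3 to 38 CPM in the lithium libraries (median 33.7) and 16.9 to 24.4 CPM in the controls (median 22.3). Both groups with lithium lay above the controls and overlapped each other. Its log2 fold change was 0.63 ± 0.10 in lithium against control, 0.74 ± 0.11 in lithium-amiloride against control (edgeR adjusted p = 8.98e-05) and 0.11 ± 0.10 in lithium-amiloride against lithium (edgeR adjusted p = 0.677). At 6 months it had 26.2, 35.8 and 34.9 CPM in the libraries labelled lithium, 32.5, 39.5, 34.6 and 34.1 CPM in those labelled control and 23.2, 24.8 and 25.9 CPM in those labelled lithium-amiloride. Here the labelled lithium and labelled control libraries overlapped, unlike those of *Cdkn1a*, *Cdkn2b* and *Gdf15* (log2 fold change -0.12 ± 0.11).

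The p53 inhibitors had smaller fold changes against control than *Cdkn1a*, *Cdkn2b* and *Gdf15* at 14 and 28 days, and *Mdm4* was called at 28 days and 6 months. *Mdm2* (ENSRNOG00000006304), the ubiquitin ligase that marks p53 for destruction and is itself switched on by p53, had 47.6 to 55.2 CPM in the 14-day lithium-amiloride, 52.9 to 63.5 CPM in the lithium and 37.7 to 45.1 CPM in the control libraries. Both groups with lithium lay above every control. Its log2 fold change was 0.51 ± 0.05 in lithium against control, just inside the fold required, and 0.31 ± 0.06 in lithium-amiloride against control, where it passed the adjusted p but not the fold (edgeR adjusted p = 0.000831). The call in lithium against control was lost without control replicate 1 (0.48) and without lithium replicate 1, 2 or 6 (0.49 to 0.50). At 28 days its values were 0.22 ± 0.08 in lithium and 0.17 ± 0.08 in lithium-amiloride against control, and at 6 months its group means ranged from 42.4 to 50.5 CPM. It was called in none of the comparisons at these 2 times.

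*Mdm4* (ENSRNOG00000009696), a relative of *Mdm2* that binds and silences p53, behaved differently from *Mdm2* in its calls, although the 2 genes were not tested against each other. At 14 days its libraries overlapped in all 3 groups, with means of 24.2, 22 and 21.6 CPM in lithium-amiloride, lithium and control cortex. At 28 days it had 23.7, 24.9, 23.0, 25.5 and 28.0 CPM in the lithium-amiloride libraries, 13.8 to 26.7 CPM in the lithium libraries and 13.1 to 22.7 CPM in the controls. All 5 lithium-amiloride libraries lay above every control (log2 fold change 0.61 ± 0.17, edgeR adjusted p = 0.00984), while the lithium libraries overlapped both other groups. At 6 months the labelled lithium libraries had 27.9, 30.5 and 36 CPM, the labelled control libraries 32.3, 26.7, 28.5 and 27.7 CPM and the labelled lithium-amiloride libraries 19.0, 22.3 and 19.5 CPM. The labelled lithium and labelled control libraries both lay above the labelled lithium-amiloride libraries, by 0.63 ± 0.11 (edgeR adjusted p = 0.00397) and 0.51 ± 0.11 on the log2 scale. The second value fell under the fold required without labelled control replicate 1, labelled lithium replicate 1 or labelled lithium-amiloride replicate 1 or 3 (0.45 to 0.50), and it was lost in 6 of 8 other settings, among them both DESeq2 settings (0.49) and the replicate block (0.53). The first was lost with all deposited libraries (0.75, edgeR adjusted p = 0.0844). Likewise *Btg2* in the labelled control against the labelled lithium-amiloride libraries (0.51 ± 0.11) lost its call without labelled control replicate 2 or labelled lithium-amiloride replicate 1 (0.45 and 0.46).

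*Sesn1* (ENSRNOG00000000302), a sestrin that restrains the growth kinase mTORC1 and is a known p53 target, went the other way. At 14 days it had 44.3, 43.3, 56.9, 55.0 and 51.6 CPM in the lithium-amiloride libraries, 40.8 to 57.5 CPM in the lithium libraries and 61.4 to 72.3 CPM in the controls. Every control lay above every library with lithium. For *Sesn1* the log2 fold change was -0.51 ± 0.08 in lithium against control and -0.42 ± 0.09 in lithium-amiloride against control, the second short of the fold required (edgeR adjusted p = 0.00238). The call in lithium against control was lost without control replicate 4, 5 or 6 or lithium replicate 2, 3 or 6 (-0.50 to -0.47), and with library totals in place of TMM scaling (-0.41). At 28 days the groups overlapped, with -0.09 ± 0.11 in lithium and -0.30 ± 0.11 in lithium-amiloride against control (edgeR adjusted p = 0.0471 for the second), and at 6 months its group means ranged from 38.8 to 45.5 CPM with no call.

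*Bax* (ENSRNOG00000020876), which opens the outer mitochondrial membrane in cell death, was called in none of the 9 comparisons. Its largest value was 0.39 ± 0.09 in lithium against control at 14 days, where 4 of 6 lithium libraries lay above every control, and 0.35 ± 0.09 in lithium-amiloride against control (edgeR adjusted p = 0.0126). At 28 days the 3 group means lay between 37.6 and 38.1 CPM.

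**Figure D2:**
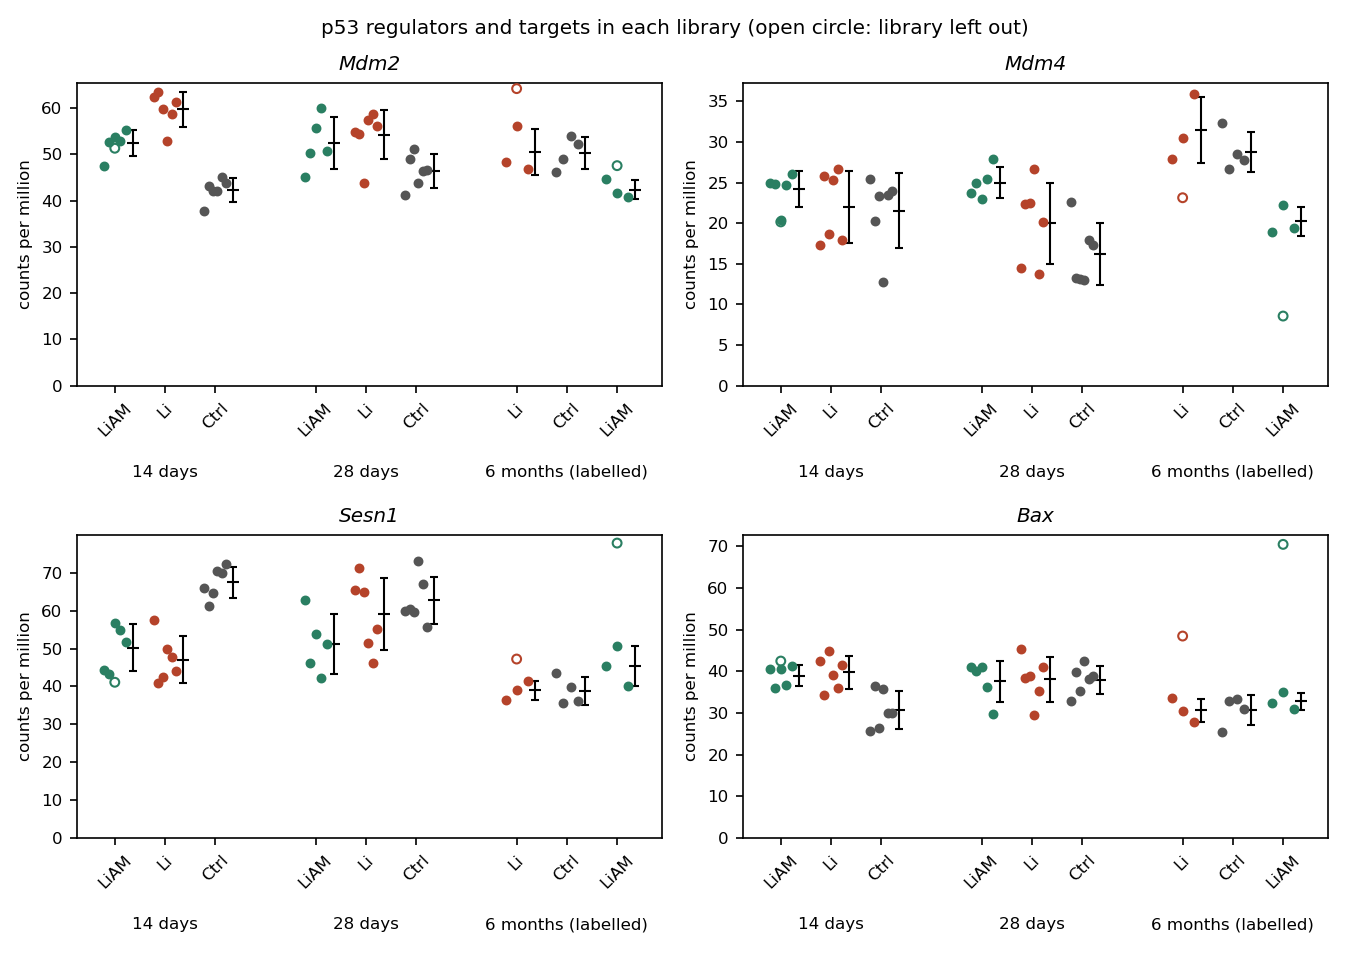
CPM of *Mdm2*, *Mdm4*, *Sesn1* and *Bax* in each library, laid out as for the growth arrest genes, with group means ± SD and open circles for the 3 libraries left out. *Sesn1* lay between 61.4 and 72.3 CPM in the 14-day controls and at most 57.5 CPM in every lithium and lithium-amiloride library used at that time, and the 28-day group means of *Bax* lay between 37.6 and 38.1 CPM.

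Counted together, 6 of the 8 genes were called in lithium against control at 14 days, 5 higher and 1 lower, where 12.1% of all 14179 genes tested were called. At 28 days 4 of 8 were called, all higher, against 9.07% of all genes, and in the 6-month libraries labelled control against those labelled lithium-amiloride 5 of 8, all higher, against 7.54%. These 3 counts come from the comparisons on which the genes were selected and support nothing by themselves. Genes with a symbol were called more often than all genes in the same comparisons, at 17.9%, 13.8% and 11.3%.

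In lithium-amiloride against control, 4 of 8 genes were called at 14 days and 5 of 8 at 28 days, all higher, where 8.32% and 16.6% of all genes tested were called (12.5% and 24.7% of those with a symbol). In the 6-month libraries labelled lithium against those labelled lithium-amiloride 4 of 8 were called, all higher, where 7.78% of all genes were called. These comparisons share libraries, the controls at 14 and 28 days, with lithium against control, on which the genes were selected. Their counts and p-values are therefore not independent of the selection. In lithium-amiloride against lithium 1 of 8 genes was called at 14 days, *Cdkn2b*, where 2.19% of all genes were called, and 0 of 8 by edgeR at 28 days, where 0.438% were. At 28 days DESeq2 also called 0 of 8. By edgeR *Cdkn1a* was the 1 gene of the 8 with an unadjusted p under 0.05 there. In the 6-month libraries labelled lithium against those labelled control 3 of 8 were called, all higher, where 1.99% were, and by label this too is a comparison on which the genes were selected. The median log2 fold change of the 8 genes in lithium-amiloride against control was 0.72 at 14 days and 0.68 at 28 days, beside 0.00 over all genes tested at either time. In lithium-amiloride against lithium it was -0.11 at 14 days and 0.05 at 28 days.

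Groups that did not overlap were counted in the same way, with the same limit from the selection. In lithium-amiloride against control this held for 6 of 8 genes at 14 days and 5 of 8 at 28 days, against 12.1% and 15% of all genes tested. In lithium-amiloride against lithium it held for 2 of 8 at 14 days, *Cdkn2b* and *Btg2*, against 3.53% of all genes, and for 0 of 8 at 28 days, against 2.09%. With 3 or 4 libraries a group it held for many genes at 6 months, 16% in the labelled lithium against the labelled control libraries, where *Cdkn1a*, *Cdkn2b* and *Gdf15* were the 3 of 8. It held for 28.1% of all genes in the labelled control against the labelled lithium-amiloride libraries and for 35% in the labelled lithium against the labelled lithium-amiloride libraries, with 6 of 8 in each, so separate groups are a weak description at that time.

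**Figure D3:**
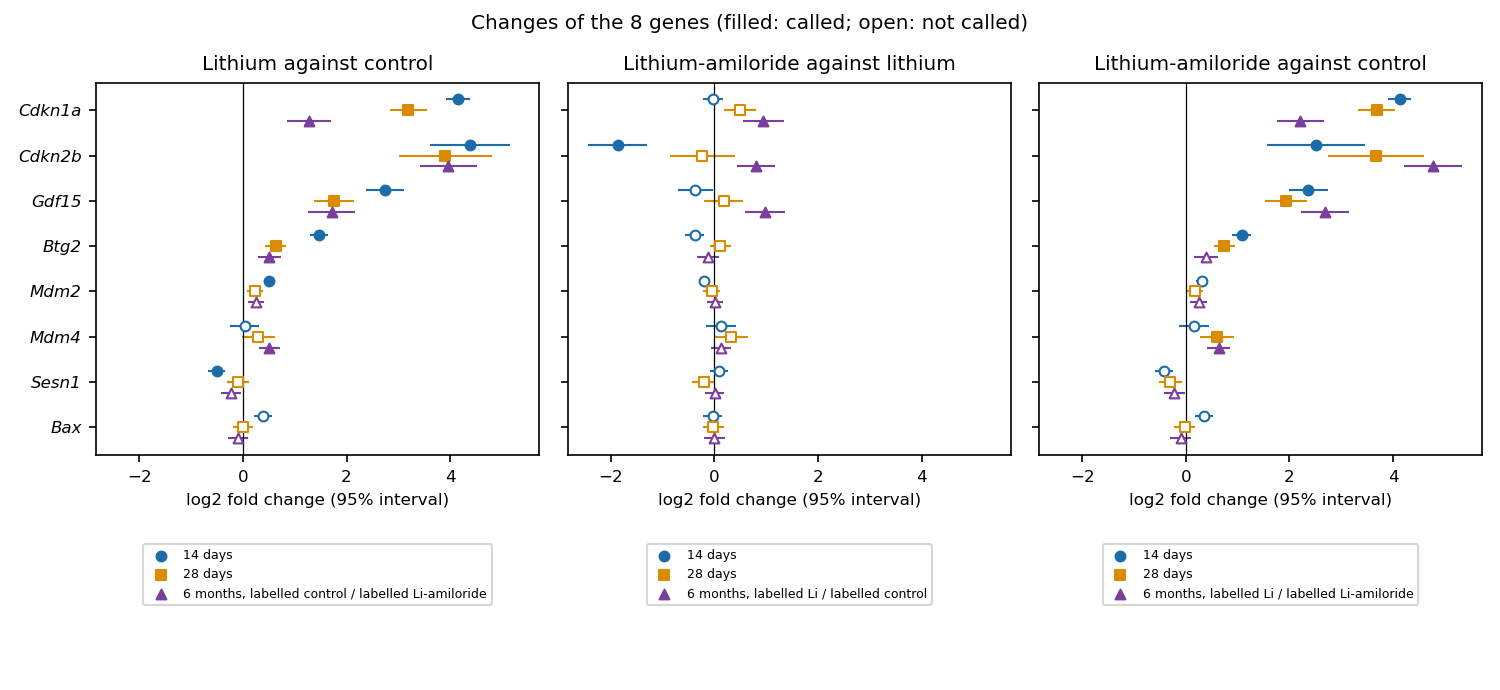
Log2 fold change with its 95% interval of each gene in 3 panels, from left to right lithium over control, lithium-amiloride over lithium and lithium-amiloride over control, with circles for 14 days, squares for 28 days and triangles for 6 months, the triangles placed by the naming of the deposited tables with the labels in each legend; filled symbols were called and open ones were not. *Cdkn1a* stood at 4.15 and 3.20 in lithium and at 4.13 and 3.69 in lithium-amiloride against control at 14 and 28 days, and *Cdkn2b* at -1.87 in lithium-amiloride against lithium at 14 days.

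Whether the effect of lithium or of amiloride differed between 14 and 28 days was asked with interaction terms in a fit over all 44 libraries. For lithium-amiloride against lithium none of the 8 genes, and 0 of 15026 genes tested (0%), was called by edgeR, while 1431 genes had an unadjusted p under 0.05 and DESeq2 called 1 gene, none of the 8. Of the 8 genes *Cdkn1a*, *Cdkn2b*, *Btg2* and *Sesn1* had an unadjusted edgeR p under 0.05 there. For lithium-amiloride against control 0 of the 8 genes was called by edgeR or DESeq2, where edgeR called 5.5% of all genes. *Btg2*, *Mdm4* and *Bax* had an unadjusted edgeR p under 0.05 in that comparison. Among the 8 genes *Bax* came nearest there, with a difference of -0.36 ± 0.14 at 28 days minus 14 days (edgeR adjusted p = 0.0838). For lithium against control, given without a test, the fold changes of *Cdkn1a*, *Gdf15* and *Btg2* were smaller at 28 than at 14 days by -0.93 ± 0.24, -0.96 ± 0.28 and -0.81 ± 0.14 on the log2 scale.

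The wider p53 pathway was read from lists of genes, of which those with a symbol and enough counts could be tested. Of 29 other p53 targets tested (of 40 listed), 7 rose and 1 fell in lithium-amiloride against control at 14 days, and 10 rose and 1 fell at 28 days. These are 27.6% and 37.9% of the list, where 12.5% and 24.7% of all genes with a symbol were called. In lithium against control 13 and 8 rose and none fell at these times, or 44.8% and 27.6%, where 17.9% and 13.8% of genes with a symbol were called. Set against lithium alone, lithium-amiloride had none higher and 6 lower at 14 days, and none higher and 1 lower at 28 days, or 20.7% and 3.45% of the list, where 3.37% and 0.703% of genes with a symbol were called. The median of the list at 14 and 28 days was 0.42 and 0.30 in lithium against control, 0.10 and 0.22 in lithium-amiloride against control and -0.11 and -0.07 in lithium-amiloride against lithium. In the 6-month libraries labelled lithium against those labelled lithium-amiloride 4 rose and none fell, or 13.8%, near the 12% of genes with a symbol called there. In those labelled control against those labelled lithium-amiloride 5 rose and 1 fell, or 20.7%, where 11.3% of genes with a symbol were called. In those labelled lithium against those labelled control 1 rose and none fell, or 3.45%, near the 3.16% of genes with a symbol.

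*Pmaip1*, which encodes the cell death protein Noxa, rose by 1.94 ± 0.16 on the log2 scale in lithium against control at 14 days, and fell by 1.10 ± 0.16 in lithium-amiloride against lithium (edgeR adjusted p = 0.00052). *Plk2*, a kinase of the polo family, likewise rose by 1.62 ± 0.14 in lithium against control and fell by 0.93 ± 0.14 in lithium-amiloride against lithium. *Eda2r*, a receptor of the tumour necrosis factor family, rose by 3.93 ± 0.46 in lithium against control and by 2.74 ± 0.54 in lithium-amiloride against control at 14 days, and its -1.19 ± 0.33 in lithium-amiloride against lithium did not pass the test (edgeR adjusted p = 0.051). *Ckb*, the brain form of creatine kinase, rose in lithium-amiloride against control by 0.85 ± 0.09 at 14 days and 0.91 ± 0.11 at 28 days. At 14 days *Pmaip1* and *Plk2* thus fell in lithium-amiloride against lithium, while *Cdkn1a* and *Gdf15* did not pass the test there. At 28 days *Pmaip1* had 0.08 ± 0.17 and *Plk2* -0.33 ± 0.16 in lithium-amiloride against lithium, neither called. For *Pmaip1* the change between the times passed the test in lithium-amiloride against control (1.21 ± 0.27, edgeR adjusted p = 0.00759) but not in lithium-amiloride against lithium (1.17 ± 0.24, edgeR adjusted p = 0.159).

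**Figure D4:**
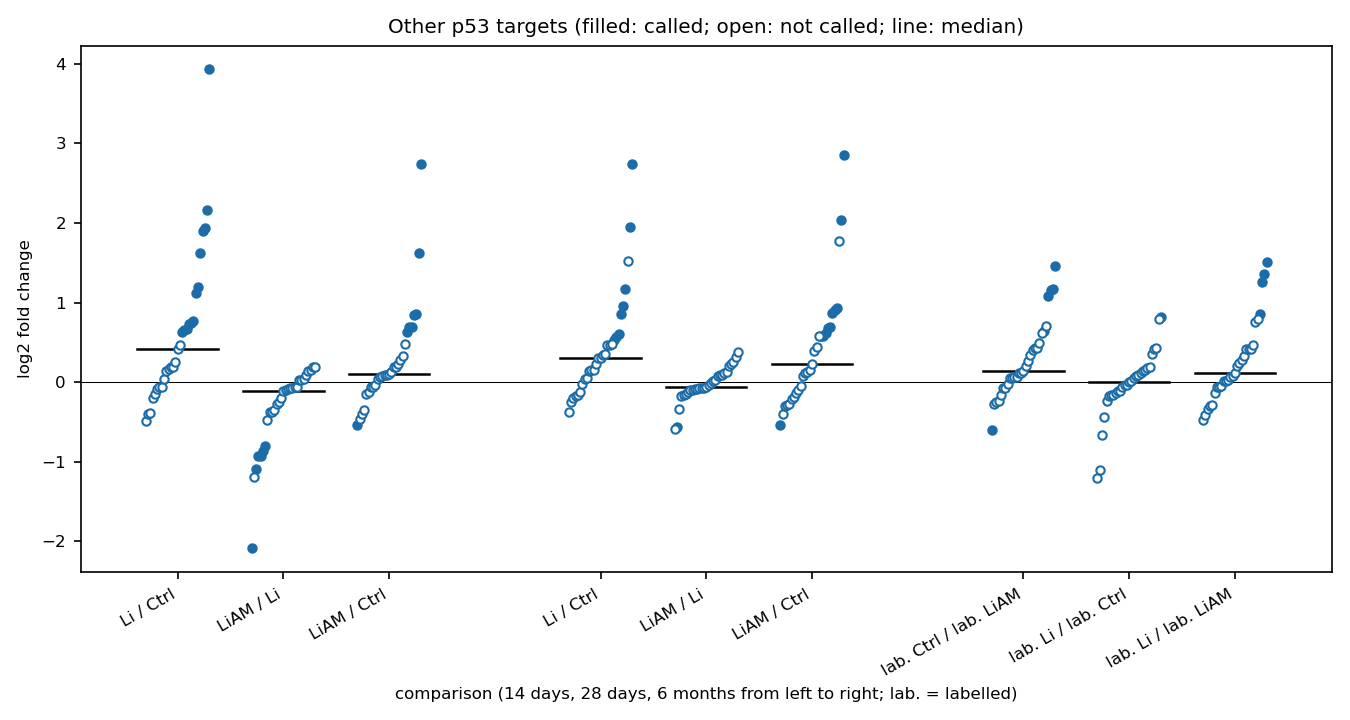
Log2 fold change of the 29 other p53 targets tested in each of the 9 comparisons, 1 point per gene in rising order, filled where called, with the median as a line; comparisons at 14 days stand on the left, those at 28 days in the middle and those at 6 months on the right, the last by label. In lithium-amiloride against lithium at 14 days none was called higher and 6 lower, and in lithium-amiloride against control at 28 days 10 were called higher and 1 lower.

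Among the p53 pathway regulators, 12 genes were tested (of 20 listed), and 1 rose in lithium-amiloride against control at 14 days and none at 28 days (8.33% and 0%, below the shares of genes with a symbol given for the p53 targets). *Ppp1r13l*, which encodes the p53 inhibitor iASPP, rose by 0.61 ± 0.16 at 14 days and 1.08 ± 0.19 at 28 days in lithium against control. *Tp73*, a relative of p53, rose by 0.86 ± 0.24 in lithium against control at 14 days and was called in no other comparison.

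The other kinase inhibitors did not follow *Cdkn1a* and *Cdkn2b*. Of 3 tested (of 5 listed), none rose in any of the 9 comparisons. *Cdkn1c*, which encodes p57, fell by 1.0 ± 0.19 in lithium-amiloride against control at 28 days (edgeR adjusted p = 0.00088) and by 0.83 ± 0.18 in lithium against control. It had 0.03 ± 0.18 and 0.10 ± 0.17 in the same comparisons at 14 days, and the difference between the times passed the test in lithium-amiloride against control (-1.02 ± 0.26, edgeR adjusted p = 0.0171). At 6 months *Cdkn1c* was also called lower in the labelled lithium and in the labelled control libraries, each against the labelled lithium-amiloride libraries. *Cdkn2c*, which encodes p18, fell by 0.52 ± 0.12 in lithium-amiloride against control at 28 days. *Cdkn1b*, which encodes p27, was called in no comparison.

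Of 8 relatives of *Sesn1* and *Btg2* tested among the sestrins, BTG/TOB and GADD45 genes (of 10 listed), 3 rose and none fell in lithium against control at 14 days, and 1 rose in lithium-amiloride against control (37.5% and 12.5%, where 17.9% and 12.5% of genes with a symbol were called). *Btg3* rose by 0.82 ± 0.12 in lithium against control and by 0.55 ± 0.12 in lithium-amiloride against control at 14 days. *Gadd45b* rose by 0.88 ± 0.17 in lithium against control at 14 days, and *Gadd45g* by 1.75 ± 0.45 in lithium-amiloride against control at 28 days. *Sesn3* had -0.28 ± 0.17 in lithium against control at 14 days, not past the test, and rose by 0.60 ± 0.21 in lithium-amiloride against control at 28 days. Of 10 genes of the BCL-2 family tested beside *Bax* (of 15 listed), 4 rose in lithium against control at 14 days and none fell. This is 40% of the list, where 17.9% of genes with a symbol were called. In lithium-amiloride against lithium at 14 days 2 of the 10 fell, *Pmaip1* and *Bik* (20%, where 3.37% of genes with a symbol were called). *Bik*, a relative that promotes cell death, fell by 1.08 ± 0.26 (edgeR adjusted p = 0.028). *Pmaip1* is also counted among the other p53 targets.

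Genes of the cell cycle itself were called at some times only. Of 9 mitosis genes tested (of 17 listed), none was called in the 3 comparisons of 14 days and 4 fell in lithium against control at 28 days, or 44.4%, where 13.8% of genes with a symbol were called. *Cdk1*, the kinase of mitosis, fell by 0.82 ± 0.19 there and had -0.42 ± 0.20 in lithium-amiloride against control, not past the test. *Aurkb*, a kinase of chromosome segregation, rose by 1.98 ± 0.42 in the 6-month libraries labelled lithium against those labelled lithium-amiloride. Of a list of genes of the phase before DNA replication 6 were tested (of 12 listed), cyclins and genes of the retinoblastoma family but no kinase. In lithium against control 1 rose at 14 days (16.7%, where 17.9% of genes with a symbol were called). In lithium-amiloride against control 1 rose and 1 fell at 14 days and 2 rose at 28 days (33.3% at both times, where 12.5% and 24.7% of genes with a symbol were called). *Ccnd1*, which encodes cyclin D1, rose by 1.22 ± 0.12 in lithium-amiloride against control at 28 days (edgeR adjusted p = 3e-06) and by 0.80 ± 0.12 in lithium against control. *Cdkn1a* and *Ccnd1* were thus both higher in these comparisons.

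*Gdf15* is also a target of the integrated stress response, the program that slows protein synthesis under amino acid or endoplasmic reticulum stress. Of 12 of its genes tested at 14 days (of 16 listed), 7 rose in lithium against control and 5 in lithium-amiloride against control, and none fell (58.3% and 41.7%, where 17.9% and 12.5% of genes with a symbol were called). *Atf3*, a transcription factor of this response, rose by 1.28 ± 0.24 in lithium-amiloride against control and fell by 0.90 ± 0.22 in lithium-amiloride against lithium at 14 days. *Asns*, the asparagine synthetase, rose by 1.12 ± 0.15 in lithium against control at 14 days and by 0.73 ± 0.18 at 28 days. Of 11 tested at 28 days 2 rose in either comparison with control, or 18.2%, near or below the 13.8% of genes with a symbol called in lithium and the 24.7% called in lithium-amiloride against control.

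Likeness of pattern to *Cdkn1a* was measured as Pearson's r of log2(CPM + 1) over the 44 libraries, each centred on the mean of its study, among 13862 genes. The 5 genes most like it were *Fam167a* (r = 0.974), *Lgals3*, which encodes galectin-3 (0.972), the epithelial keratin *Krt18* (0.969), the tubulin *Tubb4a* (0.963) and the tight junction gene *Cldn4* (0.963). The 3 genes most opposed were *Klhl8* (-0.903), *Amdhd2* (-0.902) and the glutathione transferase *Gsta1* (-0.892). The libraries share treatment groups, and these values describe that shared pattern. Among the 8 genes *Cdkn1a* had r = 0.93 with *Gdf15*, 0.90 with *Btg2* and 0.73 with *Cdkn2b*. With each library centred on its own group instead, the same pairs had 0.38, 0.20 and 0.04, so within groups these pairs varied together far less closely. Some other pairs did vary together within groups. *Gdf15* and *Mdm2* had r = 0.56 there, *Sesn1* and *Btg2* -0.59 and *Mdm4* and *Bax* -0.62.

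Markers of other cell types also moved in some of these comparisons. In bulk cortex, fewer cells of a type and less RNA per cell cannot be told apart. The summed level of 9 injured tubule markers ranged from 828 to 1049 CPM in lithium-amiloride, 1130 to 1917 CPM in lithium and 373 to 586 CPM in control libraries at 14 days, and at 28 days from 643 to 837, 680 to 790 and 350 to 425 CPM in the same groups. Of these markers 4 of 9 fell in lithium-amiloride against lithium at 14 days and none rose (44.4%, where 3.37% of genes with a symbol were called). The 8 T cell markers summed to 13.2 to 17.7, 15.7 to 37.0 and 7.45 to 12.9 CPM at 14 days. All 8 rose in lithium against control, where 17.9% of genes with a symbol were called. The 9 principal cell markers, *Aqp2* among them, summed to 736 to 993, 352 to 501 and 839 to 1014 CPM at 14 days. Of them 8 of 9 rose in lithium-amiloride against lithium, where 3.37% of genes with a symbol were called. At 28 days the 8 macrophage markers summed to 77.0 to 201 CPM in lithium-amiloride, 68.3 to 165 in lithium and 44.8 to 121 in control libraries. At that time 8 of 8 rose in lithium-amiloride and 6 of 8 in lithium against control. Among genes with a symbol 24.7% and 13.8% were called there. At 14 days 1 of 8 and 3 of 8 rose in these comparisons (12.5% and 37.5%). The first is no more than the 12.5% of genes with a symbol called in lithium-amiloride against control. In lithium against control 17.9% of them were called. Of 10 intercalated cell markers 6 rose in lithium against control and 2 in lithium-amiloride against control at 28 days (60% and 20%). Among genes with a symbol 13.8% and 24.7% were called there, so the second lies below its share. The sum of the 10 markers was 711 to 945, 594 to 1359 and 479 to 1079 CPM in lithium-amiloride, lithium and control libraries. At 6 months 6 of 10 rose in the labelled lithium and 7 of 10 in the labelled control against the labelled lithium-amiloride libraries. Among genes with a symbol 12% and 11.3% were called in these comparisons. No marker of these 5 lists was at 0 reads in all libraries of a group. The part of cell composition in the changes of the 8 genes was not tested.

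Some further measures moved with a group. The 13 mitochondrially encoded genes took a median of 17.3% of reads in lithium-amiloride, 19.7% in lithium and 31.9% in control libraries at 28 days, and with these genes left out every call of the 8 genes at 28 days was kept. The 14 immediate-early genes summed, whose transcripts are known to rise quickly after tissue handling as well as after stimulation, gave 166 to 222 CPM in lithium-amiloride, 208 to 307 CPM in lithium and 124 to 177 CPM in control libraries at 14 days. *Btg2* is itself induced in that way. With each library centred on its own group, *Btg2* had r = 0.58 with the immediate-early gene *Fos* and 0.49 with *Egr1*. In the same way *Mdm2* had 0.47 and 0.33, and *Sesn1* -0.38 and -0.54. The other genes described here lay between -0.15 and 0.28. The part of handling in these changes was not tested. The 10 markers of the tissue check gave 9 genes with a symbol and reads in every group, with 8620 to 15121 CPM summed over all libraries used. Of the 3 fat cell markers summed, 28-day lithium libraries reached up to 202 CPM against at most 63.4 CPM in the controls of that time, and leaving out any 1 of the 28-day libraries changed no call of the 8 genes within that time.

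The 6-month calls of the labelled lithium against the labelled control libraries were the least secure. All 3 (*Cdkn1a*, *Cdkn2b* and *Gdf15*) were lost with all deposited libraries in the fit, with the replicate number as a block, with library totals in place of TMM scaling, and when any 1 of labelled lithium replicates 2 and 3 or labelled control replicates 2 and 3 was left out. In each of these fits the 3 log2 fold changes stayed between 0.73 and 1.28.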

How the data were processed

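Kidney cortex RNA of male Wistar rats was sequenced from stranded poly(A) libraries. Per the labels, the authors trimmed reads with cutadapt 0.2.6, aligned them with HISAT2 2.1.0 to Rnor_6.0 and assigned them to genes with featureCounts 2.0.0, and the deposited values are raw read counts per gene. The deposited DESeq2 tables hold baseMean, a signal of normalised mean counts, log2 fold changes and p-values. Symbols were taken from these tables. The baseMean signal deposited by the authors was used to find which libraries entered each table, and their deposited 6-month log2 values only to find the group naming. Nothing else in those columns was used.

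The tables came back with 44 of 47 libraries, without 14-day lithium-amiloride replicate 2, 6-month labelled lithium replicate 4 and 6-month labelled lithium-amiloride replicate 4 (median relative difference at most 6.57e-11). For 6 months the largest median difference was 6.38e-08 under the naming described and 0.958 as labelled. Libraries were tested by label.

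Per time, the 3 groups were fitted together with edgeR 4.0.16 (R 4.3.3) after filterByExpr and TMM scaling, by the quasi-likelihood F test with Benjamini-Hochberg adjustment over all 14179, 14140 and 14532 genes tested. Calls required an adjusted p below 0.05 together with a change of 0.5 or more on the log2 scale, in either direction. Differences between 14 and 28 days were interaction terms over 15026 genes. CPM levels used 1 TMM scaling over all 47 libraries. DESeq2 1.42.0, other scalings, no filter, all libraries, 2 groups alone, the replicate number as a block and each library left out were alternatives. The mitochondrially encoded genes carried no Mt- prefix, so the alternative without them used their bare symbols and was chosen after seeing the data.

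The 8 genes and all lists were chosen with earlier results of these data known. Any gene named from a pathway list is among the 4 of its list called in most comparisons, with the larger mean absolute change deciding ties. The libraries held 10399818 to 15618395 counts in the 14-day study, 14779709 to 17554304 in the 28-day study and 21420673 to 25415685 in the 6-month study. The p-values come from setting a difference between groups against the spread between these libraries.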

Additional observations from a re-analysis of the deposited data

Results flagged for a closer look

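In 4 of 56 groups of 4 to 6 libraries tested, 1 library lay far from the others of its group, where chance gives about 1 group in 20. *Cdkn1a* had 60.6 CPM in 28-day lithium-amiloride replicate 1, with the nearest library of the group at 90.4 CPM. *Btg2* had 16.9 CPM in 28-day control replicate 4 (nearest 21.8 CPM), *Mdm2* 43.9 CPM in 28-day lithium replicate 3 (nearest 54.4 CPM), and *Mdm4* 20.4 CPM in 14-day lithium-amiloride replicate 4 (nearest 24.7 CPM).

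The 3 libraries left out of the comparisons also held values above the highest control, with libraries that are controls under either naming counted as controls at 6 months. The 14-day lithium-amiloride replicate 2 had 66.8 CPM of *Cdkn1a*, against at most 6.84 CPM in the 14-day controls, and 0.566 CPM of *Cdkn2b*, against at most 0.143 CPM. It had 56.3 CPM of *Gdf15* (highest control 19.4), 35.5 CPM of *Btg2* (21.9), 51.3 CPM of *Mdm2* (45.1) and 42.5 CPM of *Bax* (36.4). Its fat cell markers summed to 1497 CPM, against 32.9 to 51.8 CPM in the 5 libraries of its group that were used. The 6-month labelled lithium replicate 4 had 185 CPM of *Cdkn1a* (highest control 52.3), 10.9 CPM of *Cdkn2b* (6.03), 68.6 CPM of *Gdf15* (23.6), 65.0 CPM of *Btg2* (39.5), 64.2 CPM of *Mdm2* (54.0) and 48.5 CPM of *Bax* (35.0). The 6-month labelled lithium-amiloride replicate 4 had 77.8 CPM of *Sesn1* (highest control 50.8) and 70.4 CPM of *Bax* (35.0).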

How the results depend on the processing

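Of 88 values of the 8 genes over 11 comparisons, 32 were called, and no alternative reversed a called direction. The 32 include calls from comparisons on which the genes were selected, so their number and stability support nothing by themselves. These were 6 of 8 at 14 days, 4 of 8 at 28 days and 5 of 8 in the 6-month labelled control against labelled lithium-amiloride libraries. By label the 3 of 8 in labelled lithium against labelled control belong with them. Of all genes 12.1%, 9.07%, 7.54% and 1.99% were called there. Without a filter on low counts no call changed, and DESeq2's Wald test and its size factors lost 2 calls each. The 6-month libraries labelled control against those labelled lithium-amiloride gave 5 calls, 3 with either DESeq2 setting, 1 with all deposited libraries (*Cdkn2b*) and 3 to 5 with 1 library left out. The libraries labelled lithium against those labelled control gave 3 calls, 0 with all deposited libraries, 0 with library totals and 0 to 3 with 1 library left out. For the change between 14 and 28 days in lithium-amiloride against control the count was 0, and 0 to 1 with 1 library left out, with *Mdm4* called without 28-day control replicate 1 (0.59, edgeR adjusted p = 0.0456). Of 41 same-number pairs of libraries, 11 had r over 0.1 (range -0.227 to 0.286). Pairs of unlike number were not compared, so this cannot decide whether the replicate numbers pair the libraries. With the replicate block 4 calls were lost, and the labelled lithium against labelled control count was 0. With only the 2 groups compared, *Cdkn2b* was filtered out in 14-day lithium-amiloride against control. The causes were not tested. *Cdkn2b*, with 7 and 10 reads in all 14-day and 28-day controls, is the gene most limited by depth.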
